A study of Homo sapiens with 6 samples.

Results

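The vascular growth factor genes examined here comprised 10 genes taken from 20461 Ensembl genes listed in the deposited tables. The set was defined by name and family: the VEGF ligands VEGFA, VEGFB, VEGFC and PGF, the VEGF receptor FLT1, the PEDF gene SERPINF1, the angiopoietins ANGPT1 and ANGPT2, and the angiopoietin-like genes ANGPTL4 and ANGPTL7. Their RNA was measured by bulk RNA sequencing in ARPE-19, an established human retinal pigment epithelial (RPE) cell line. The control group (n = 3 libraries) carried a control lentivirus, and the PDZK1 group (n = 3 libraries) carried a lentivirus driving PDZK1, a scaffold protein that holds membrane transporters in place. The virus was given at an MOI of 10 (infectious units per cell), and both groups were selected in 4 µg/ml puromycin and kept in 37.5 mM glucose for 48 h, so every library came from transduced, selected, high-glucose cells and no library in normal glucose was analysed here. The comparison therefore set cells with added PDZK1 beside cells with the control virus under high glucose, in a model of diabetic retinopathy. The paper describes the puromycin step as selection of stable lines. An effect of PDZK1 and a difference between separately transduced and selected cell populations cannot be told apart. The labels do not state whether the libraries of a group came from separate cultures, so p-values measure only the spread between these libraries, which may be technical. In bulk RNA, fewer cells of a type and less RNA per cell cannot be told apart.

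RPE cells secrete VEGFA toward the choroidal vessels, which need it for survival, and secrete PEDF, a serpin without protease-inhibiting activity that restrains vessel growth. VEGFA acts mainly through the receptor KDR, whereas FLT1 binds VEGFA, VEGFB and PGF and can act as a decoy, and VEGFC acts mainly on lymphatic endothelium through FLT4. ANGPT1 stabilises vessels through the receptor TEK, ANGPT2 opposes it in many settings, and the angiopoietin-like proteins share their fold but do not bind TEK. Excess VEGFA is the main target of treatment for leaking and growing vessels in diabetic retinopathy.

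Total counts per library ran from 27970618 to 32804567. PDZK1 itself had 18 to 23 counts in the control libraries and 2541 to 3020 in the PDZK1 libraries, a log2 fold change of 7.03 (edgeR quasi-likelihood test, adjusted p = 8.16e-09). Of 13645 genes with enough counts to test, 522 passed an adjusted p under 0.05, 193 higher and 329 lower in the PDZK1 group. The first principal component separated the groups, and along the second the control replicate 3 lay at -30.0 against 14.5 and 18.8 for the other control libraries. Of 17 RPE markers, 11 could be tested and none passed the threshold. KRT8, OTX2, MITF and RLBP1 were detected in all libraries, RPE65, TTR, TRPM1 and CLDN19 stood at 0 counts in all 6, and BEST1 had 124 to 181 counts in 5 libraries but 11459 in PDZK1 replicate 1. Among 12 endothelial markers, CDH5, TIE1 and EMCN were at 0 counts in all libraries. EGFL7 (219 to 271 counts), ROBO4 (162 to 269) and KDR (107 to 155) were detected in all libraries. ESAM had 16, 6 and 10 counts in control and 31, 25 and 36 counts in PDZK1 libraries. Of the 5 tested, 2 had a log2 fold change above 0 and 3 below. The summed level of the list was 21.5 to 22.5 CPM (depth-scaled counts, with TMM library sizes) in control and 17.5 to 20.9 CPM in PDZK1 libraries. While ESAM was higher without overlap, ROBO4 was lower in every PDZK1 library (5.11 to 7.35 CPM) than in any control library (7.70 to 8.73 CPM). KDR was likewise lower, at 3.37 to 3.71 CPM against 4.80 to 5.11 CPM in control. Of 10 mural and fibroblast markers, COL1A2, LUM and DCN were at 0. PDGFRB stood at 70.8 ± 6.23 CPM in control and 81.3 ± 4.12 CPM in PDZK1 libraries, and ACTA2 at 50.2 ± 3.14 and 51.6 ± 1.73 CPM. COL1A1 was higher in every PDZK1 library (5.58 to 6.12 CPM) than in any control library (3.30 to 4.71 CPM). CSPG4 was lower in every PDZK1 library (2.49 to 2.90 CPM) than in any control library (2.91 to 3.23 CPM). Of all tested genes, 23.9% likewise did not overlap between the groups, in either direction. Of the 6 tested, 5 had a log2 fold change above 0 and 1 below. The list summed to 133 to 141 CPM in control and 145 to 154 CPM in PDZK1 libraries. None of the tested endothelial (5 genes) or mural and fibroblast (6 genes) markers passed the threshold, and the part of such cells in the results below was not tested.

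Of the 10 genes, ANGPTL7 alone changed by the test across all genes, falling to 0.405 of its control level in cells that overexpressed PDZK1. The VEGF ligands VEGFA, VEGFB and VEGFC, which made up nearly all VEGF ligand RNA of these cells, had fitted changes whose 95% intervals lay inside a 1.5-fold change. SERPINF1 and ANGPTL4 were lower in every PDZK1 library than in any control library, but at few counts and without passing the threshold. FLT1 was not detected, and PGF and ANGPT2 were close to the limit of detection. Of the 7 genes that could be tested, 1 passed the threshold, where 3.83% of all tested genes did so in either direction and 2.41% were called lower. The CPM of the groups did not overlap for 3 of the 7, all lower in the PDZK1 group. Of all tested genes, 23.9% did not overlap in either direction, and 12.3% were lower without overlap. An unadjusted p under 0.05 was reached by 3 of the 7 (VEGFA, ANGPTL4 and ANGPTL7), beside 17.5% of all tested genes. The log2 fold change was below 0 for 5 and above 0 for 2 of them, with a median of -0.13, against -0.000255 over all tested genes. ANGPTL4 is among these 7 although it had at least 10 counts in 1 PDZK1 library only, so it could enter the test only as a gene that was higher in control, and these counts describe the 7 genes and are no support for a shared direction.

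**Figure D1:**
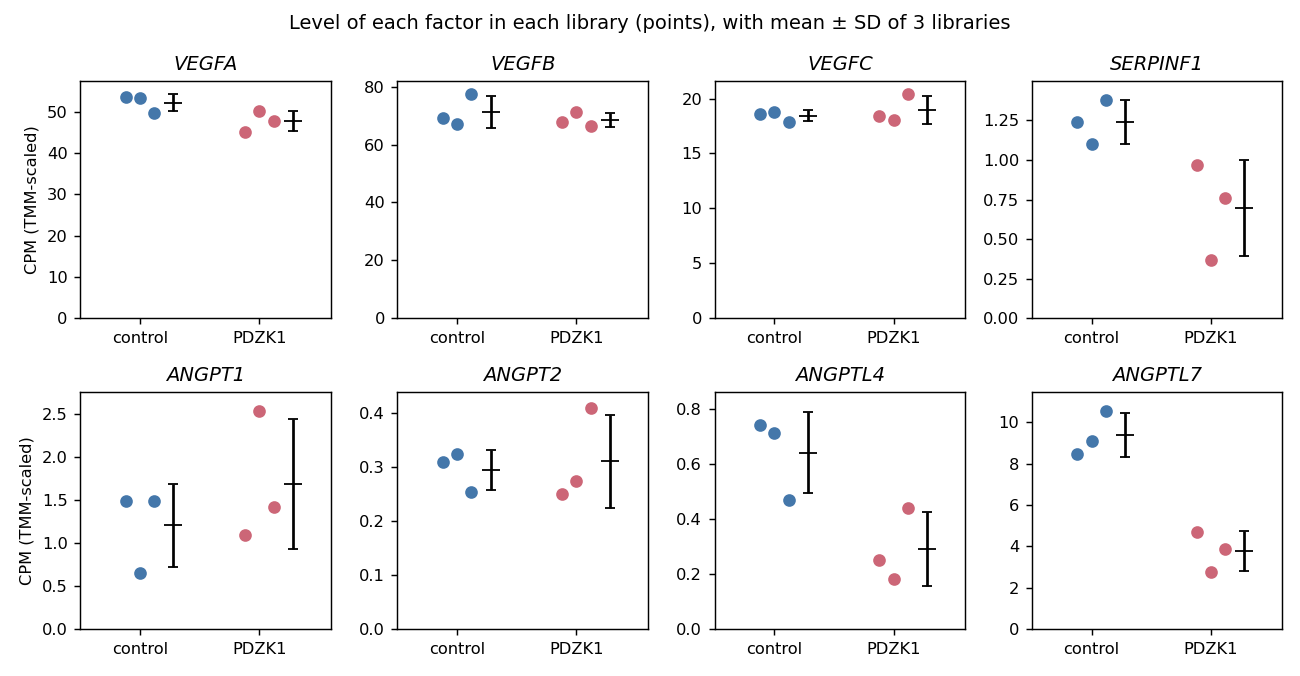
CPM of the genes other than PGF and FLT1 in each of the 6 libraries (points), with the mean and SD of each group of 3. ANGPTL7 lies between 8.48 and 10.5 CPM in control and between 2.78 and 4.71 CPM in PDZK1 libraries, while the VEGFA, VEGFB and VEGFC points of the groups overlap.

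Levels were compared between genes in FPKM, which divide by transcript length and library depth. In the control group VEGFB stood highest at 36.7 ± 2.83 FPKM (SD, n = 3), followed by VEGFA at 14.5 ± 0.677, VEGFC at 7.48 ± 0.209 and ANGPTL7 at 3.86 ± 0.426. Below these came SERPINF1 at 0.791 ± 0.0561 FPKM, ANGPTL4 at 0.309 ± 0.0716, ANGPT1 at 0.251 ± 0.104, ANGPT2 at 0.0519 ± 0.010 and PGF at 0.0495 ± 0.0857. The ranges of neighbours in this order did not overlap from VEGFB down to ANGPTL4, whereas ANGPTL4 and ANGPT1 overlapped, PGF overlapped ANGPT2, and FLT1 overlapped PGF. In the PDZK1 group VEGFB (35.5 ± 1.01 FPKM), VEGFA (13.4 ± 0.341) and VEGFC (7.75 ± 0.546) kept their places, and ANGPTL7 stayed next below them at 1.57 ± 0.404. SERPINF1 (0.50 ± 0.0816 FPKM) and ANGPT1 (0.353 ± 0.155) then overlapped, and ANGPTL4 (0.134 ± 0.0667) stood below both.

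**Figure D2:**
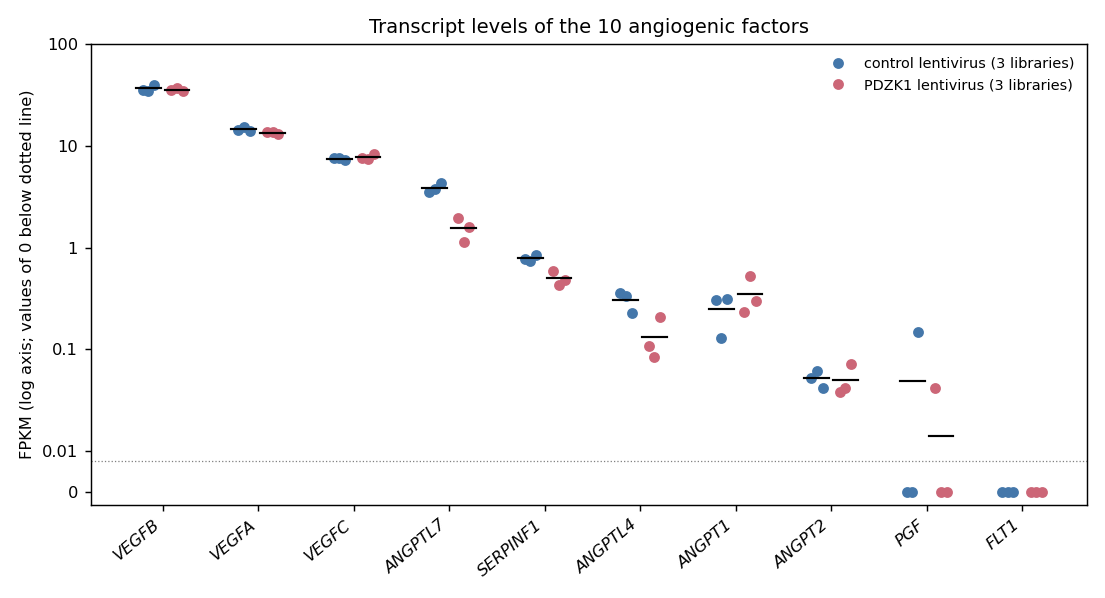
FPKM of the 10 genes on a log axis, ordered by their control level, with a point per library, a line at each group mean and values of 0 drawn below the dotted line. VEGFB is highest in both groups at 36.7 and 35.5 FPKM, and FLT1 is at 0 in all 6 libraries.

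VEGFA (ENSG00000112715, GRCh38 chromosome 6, 43770184 to 43786487, plus strand), the principal vessel growth and permeability factor, had 53.6, 53.3 and 49.9 CPM in control replicates 1 to 3 and 45.3, 50.1 and 47.8 CPM in PDZK1 replicates 1 to 3. PDZK1 replicate 2 lay just above control replicate 3, so the groups overlapped in CPM. In FPKM they did not, with 14.4, 15.2 and 13.9 in control and 13.6, 13.6 and 13.01 in PDZK1 libraries. The fitted log2 fold change of VEGFA was -0.13 ± 0.057 (SE, 95% interval -0.26 to -0.0024, unadjusted p = 0.0466, edgeR adjusted p = 0.278), which did not pass the threshold. An antisense gene, AL136131.3, shares 188 exonic bases with VEGFA, and without a stated strand setting the reads of such pairs cannot be told apart.

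VEGFB (ENSG00000173511, chromosome 11, 64234538 to 64238793, plus strand), a ligand of FLT1 and NRP1 tied to fatty acid uptake and cell survival, had 69.0, 67.2 and 77.4 CPM in control and 67.7, 71.3 and 66.6 CPM in PDZK1 libraries. Control replicate 3 was the highest of the 6 and the groups overlapped. Its log2 fold change was -0.056 (95% interval -0.19 to 0.080, edgeR adjusted p = 0.705), and without control replicate 3 it was 0.0078. VEGFC (ENSG00000150630, chromosome 4, 176683538 to 176792727, minus strand), the lymphatic growth factor, had 18.6, 18.8 and 17.9 CPM in control and 18.4, 18.0 and 20.4 CPM in PDZK1 libraries, and these too overlapped. Its log2 fold change was 0.042 (95% interval -0.13 to 0.21, edgeR adjusted p = 0.835), and -0.015 without PDZK1 replicate 3. PGF (ENSG00000119630, chromosome 14, 74941834 to 74955784, minus strand), the placental growth factor, had 8 counts in control replicate 3, 3 counts in PDZK1 replicate 1 and 0 in the other 4 libraries. It was too low to test, and a difference was not detectable at this depth.

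Summed over the 4 VEGF ligands, the level was 58.7 ± 2.11 FPKM in control and 56.7 ± 0.843 FPKM in PDZK1 libraries (SD, n = 3 each), with overlapping ranges. VEGFB made up 62.4% ± 2.57 and 62.6% ± 0.864 of this sum in control and PDZK1 libraries. VEGFA made up 24.8% ± 1.94 and 23.6% ± 0.499. VEGFC made up 12.8% ± 0.799 and 13.7% ± 1.10. The mix of VEGF ligand RNA thus overlapped between the groups for each ligand.

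On the receptor side, FLT1 (ENSG00000102755, chromosome 13, 28300344 to 28495145, minus strand) had 0 counts in all 6 libraries. A count of 0 allows up to 3 counts, or 0.0915 to 0.107 per 1e6 counts over these libraries, a limit that covers counting error only. Among 16 other genes of the VEGF and TIE pathways, 11 could be tested. Of these, 2 passed the threshold, both lower in the PDZK1 group, beside 2.41% of all tested genes called lower. The median log2 fold change of the 11 was -0.20, with 7 below 0. NRP2, a co-receptor for VEGFC and semaphorins, fell from 13.9, 10.9 and 8.92 CPM in control to 5.65, 4.42 and 5.01 CPM in PDZK1 libraries, with no overlap. The log2 fold change of NRP2 was -1.16 ± 0.172 (SE, edgeR adjusted p = 0.00653), and the adjusted p was 0.0510 without PDZK1 replicate 3 and 0.0616 to 0.104 in the fits to FPKM. PRKCA, a protein kinase C that acts downstream of KDR, fell by 0.24 on the log2 scale (edgeR adjusted p = 0.0303), and passed in 2 of 6 fits with a library left out (highest adjusted p = 0.155).

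KDR itself was low, at 4.80, 4.82 and 5.11 CPM in control and 3.71, 3.57 and 3.37 CPM in PDZK1 libraries. The groups did not overlap, and the log2 fold change of -0.47 (95% interval -0.78 to -0.15) did not pass the threshold (edgeR adjusted p = 0.111). NRP1, the co-receptor for VEGFA and VEGFB, had a log2 fold change of 0.19 (adjusted p = 0.404), which was 0.11 without control replicate 2 and passed at 0.30 (adjusted p = 0.0145) without control replicate 3. PLXND1, a semaphorin receptor, had 0.079 (adjusted p = 0.781). The secreted semaphorins, which compete with VEGF at neuropilins, had log2 fold changes of -0.57 (SEMA3A), -0.20 (SEMA3C) and -0.31 (SEMA3F), with adjusted p from 0.0585 to 0.228. SEMA3A was at -0.35 without PDZK1 replicate 1, and SEMA3C passed without control replicate 3 (adjusted p = 0.00171) and with DESeq2 (adjusted p = 0.00657). The extracellular proteoglycan HSPG2 had a log2 fold change of 0.18 (adjusted p = 0.0856) and the signalling phospholipase PLCG1 0.14 (adjusted p = 0.0643), of which HSPG2 passed with DESeq2 (adjusted p = 0.0239) and PLCG1 with library totals only (adjusted p = 0.0401). VEGFD, FLT4, TEK, TIE1 and ANGPT4 were too low to test.

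**Figure D3:**
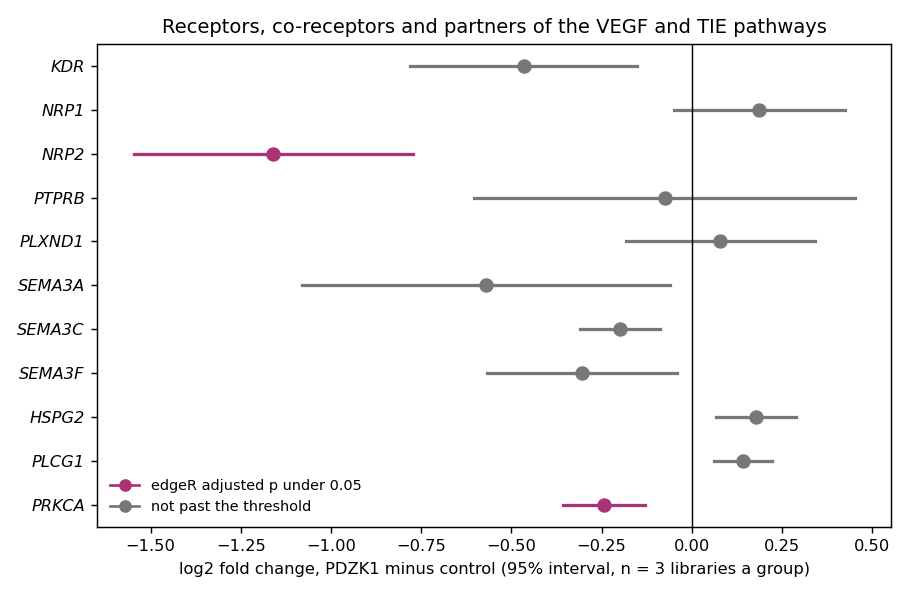
Fitted log2 fold change (PDZK1 minus control) with 95% interval for the 11 testable genes of the VEGF and TIE pathways outside the 10 genes. NRP2 at -1.16 and PRKCA at -0.24 passed the threshold.

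SERPINF1 (ENSG00000132386, chromosome 17, 1761959 to 1777574, plus strand), which encodes PEDF, was expressed at a low level in these cells. It had 40, 34 and 38 counts in control and 31, 12 and 24 counts in PDZK1 libraries, or 1.24, 1.10 and 1.38 CPM against 0.967, 0.366 and 0.757 CPM. All PDZK1 libraries lay below all control libraries, and PDZK1 replicate 2 was lowest. SERPINF1 had a log2 fold change of -0.83 ± 0.374 (SE, 95% interval -1.66 to 0.011, unadjusted p = 0.0525, edgeR adjusted p = 0.294), and -0.52 without PDZK1 replicate 2. In FPKM the same libraries read 0.779, 0.742 and 0.852 against 0.590, 0.431 and 0.478, so PDZK1 replicate 2 stood less far from its group there than in counts.

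The ratio of VEGFA to SERPINF1 sets a vessel-promoting against a vessel-restraining product of the RPE. In FPKM it was 18.5, 20.5 and 16.3 in control and 23.0, 31.6 and 27.2 in PDZK1 libraries, or 18.4 ± 2.12 against 27.3 ± 4.32 (SD, n = 3 each). In this unit the groups did not overlap. On the log2 CPM scale the ratio was 5.43, 5.60 and 5.18 in control and 5.55, 7.10 and 5.98 in PDZK1 libraries, and here the groups overlapped. The difference of group means was 0.80 in log2 CPM and 0.56 in log2 FPKM, and in CPM it was 0.36 without PDZK1 replicate 2 and 1.14 without PDZK1 replicate 1. VEGFA itself had a log2 fold change of -0.13, so the higher ratio came from SERPINF1, which had 12 to 40 counts and did not pass the threshold. No test was made of this ratio.

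Of 6 receptors and partners of PEDF, 5 could be tested and 1 passed the threshold, beside 3.83% of all tested genes. PNPLA2, a triglyceride lipase that binds PEDF, rose from 107 ± 4.38 to 122 ± 1.74 CPM (log2 fold change 0.19, edgeR adjusted p = 0.0296). With each library left out in turn, it passed in 1 of 6 fits (highest adjusted p = 0.140). The median log2 fold change of the 5 genes was -0.049.

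ANGPTL7 had the most negative fitted change of the 7 tested genes. For ANGPTL7 and its relative ANGPTL4, the 250 bases before the RefSeq start are given (GRCh38.p14, plus strand), ANGPTL4 at chr19:8363905-8364154 and ANGPTL7 at chr1:11189105-11189354. These RefSeq starts differ from the GENCODE starts used for gene positions. The ANGPTL4 window lies inside the GENCODE span of the gene (8363289 to 8374373), and the ANGPTL7 window runs past its GENCODE start at 11189341. Capitals mark matches to the HIF core (ACGTG or GCGTG on either strand, CACGT or CACGC when read on the plus strand) and to the TATA box TATAAA.
ANGPTL4: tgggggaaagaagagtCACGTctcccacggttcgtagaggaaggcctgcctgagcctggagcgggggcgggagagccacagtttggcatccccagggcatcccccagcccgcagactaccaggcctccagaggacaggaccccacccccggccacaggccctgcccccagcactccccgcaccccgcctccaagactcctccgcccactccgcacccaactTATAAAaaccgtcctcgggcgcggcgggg
ANGPTL7: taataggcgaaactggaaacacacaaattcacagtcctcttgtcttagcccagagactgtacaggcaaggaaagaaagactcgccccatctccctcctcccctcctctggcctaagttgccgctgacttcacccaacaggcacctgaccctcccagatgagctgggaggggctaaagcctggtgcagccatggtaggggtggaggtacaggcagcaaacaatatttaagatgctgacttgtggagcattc
The ANGPTL4 stretch held 1 HIF core match on the minus strand, 234 to 230 bases before the start, and 1 TATAAA, 29 to 24 bases before the start. The ANGPTL7 stretch held neither. The HIF core is found in 43.2% and TATAAA in 10.7% of 35116 RefSeq promoters of this length. ANGPTL4 has 16 CG dinucleotides and 68.8% GC in this window and ANGPTL7 has 3 and 53.2%, beside a median of 11 CG dinucleotides over all promoters. These matches describe letters and say nothing of binding in these cells.

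ANGPTL7 (ENSG00000171819, chromosome 1, 11189341 to 11195981, plus strand) encodes a secreted protein known from the cornea and trabecular meshwork and linked to eye pressure. It had 8.48, 9.10 and 10.5 CPM in control and 4.71, 2.78 and 3.88 CPM in PDZK1 libraries, from 274, 281 and 291 against 151, 91 and 123 counts. Every PDZK1 library lay below every control library, with PDZK1 replicate 2 the lowest. The group means were 9.37 ± 1.06 and 3.79 ± 0.971 CPM (SD, n = 3 each). ANGPTL7 fell by 1.31 on the log2 scale (SE 0.188, 95% interval -1.73 to -0.88, edgeR adjusted p = 0.00513). With each library left out in turn, ANGPTL7 passed the threshold in 6 of 6 fits, with log2 fold changes from -1.49 to -1.12.

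**Figure D4:**
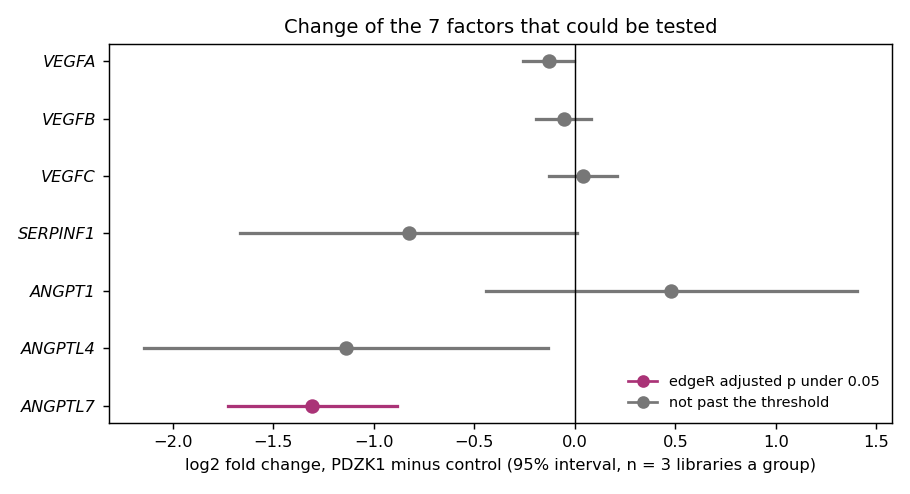
Fitted log2 fold change (PDZK1 minus control) with 95% interval for the 7 of 10 genes that could be tested. Only the ANGPTL7 value of -1.31 passed an adjusted p under 0.05, and the VEGFA, VEGFB and VEGFC intervals are the narrowest.

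ANGPTL7 lies whole within MTOR (chromosome 1, 11106535 to 11262507, minus strand), on the opposite strand. The exons of the gene pair share 0 bases, and no MTOR exonic base falls within ANGPTL7 in GENCODE release 29, so reads of unspliced MTOR RNA are the ones that could fall on ANGPTL7. MTOR, the nutrient-sensing kinase, fell from 90.1, 86.6 and 80.6 CPM in control to 72.2, 72.3 and 68.9 CPM in PDZK1 libraries (log2 fold change -0.27, edgeR adjusted p = 0.0195), and passed in 1 of 6 fits with a library left out (highest adjusted p = 0.106). There were 9.41, 10.5 and 13.1 ANGPTL7 counts per 100 MTOR counts in control and 6.53, 3.84 and 5.63 in PDZK1 libraries. This ratio did not overlap between groups, which follows from the larger log2 fold change of ANGPTL7 (-1.31) and is no separate result. The ratio cannot separate reads of unspliced MTOR RNA from reads of ANGPTL7 RNA. The part of unspliced MTOR RNA in the ANGPTL7 counts was not tested.

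Within 1 Mb of ANGPTL7, 26 other genes were tested, and 9 passed the threshold, all lower in the PDZK1 group, beside 2.41% of all tested genes called lower. Among the 9 were KIF1B (-0.27), PGD (-0.23), DFFA (-0.40), EXOSC10 (-0.23), MTOR (-0.27), KIAA2013 (-0.27), PLOD1 (-0.21) and MFN2 (-0.25 log2 fold change). The named genes code for unrelated products, such as a kinesin, a pentose phosphate enzyme, an RNA exosome subunit, a collagen lysyl hydroxylase and a mitofusin. The median log2 fold change of the 26 was -0.22, with 25 below 0, beside 50.1% of all tested genes below 0. Among the neighbours, 2 to 13 passed with a library left out, the most without control replicate 3. ANGPTL7 at -1.31 was below the lowest neighbour at -0.91. The same windows around the other 9 genes held 2 to 46 tested genes, with medians from -0.090 to 0.074 and 0 to 3 genes past the threshold. A change of the whole stretch and a change of single genes cannot be told apart here.

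**Figure D5:**
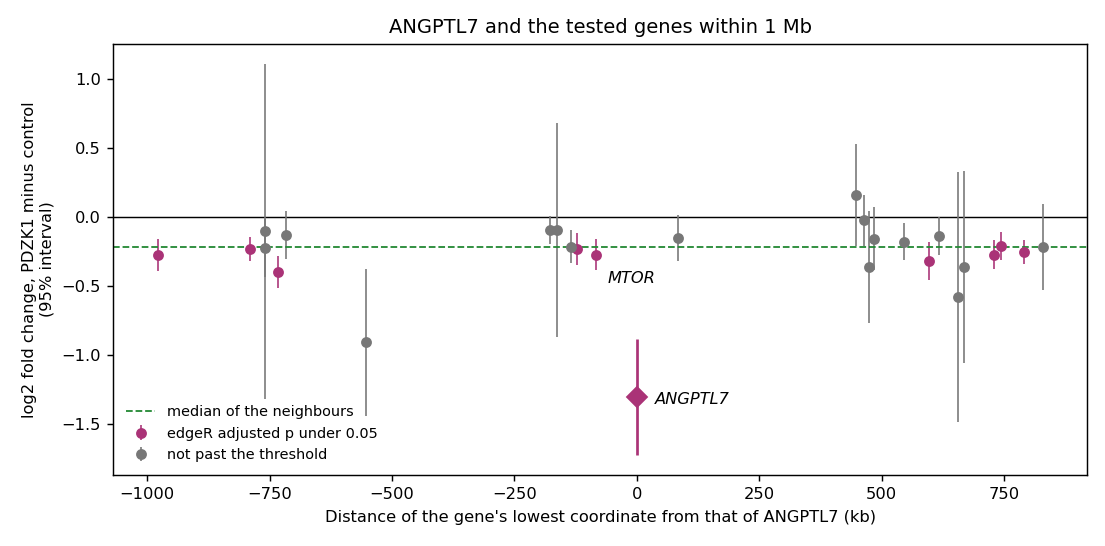
Fitted log2 fold change (PDZK1 minus control) with 95% interval of ANGPTL7 and of the 26 tested genes within 1 Mb, by distance in kb from ANGPTL7. The median of the neighbours (dashed line) lies at -0.22 and ANGPTL7 at -1.31.

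The 3 tested genes whose centred log2 CPM lay nearest to ANGPTL7 over the 6 libraries were SLCO1A2, an organic anion transporter (distance 0.337, r = 0.981), FLT3, a receptor kinase of blood progenitors (distance 0.464, r = 0.992), and TRO, which encodes the adhesion protein trophinin (distance 0.470, r = 0.963). They lie on chromosomes 12, 13 and X, so not beside ANGPTL7, and FLT3 lies within 1 Mb of FLT1. All were lower in the PDZK1 group, with log2 fold changes of -1.31, -1.62 and -1.23 (edgeR adjusted p = 0.000895, 0.00398 and 0.00180), and TRO did not pass in the fits to FPKM (adjusted p = 0.0626 to 0.1002). The 3 genes were chosen for this likeness, so their lower level follows from the choice, and their fold changes and adjusted p are no separate support. The 6 points of each correlation share their libraries and the group difference, and the values are a description. Of 10 genes that respond to glucocorticoid or TGF-beta in tissues that express ANGPTL7, 7 could be tested and 0 passed the threshold. Their median log2 fold change was 0.0020, with 4 above 0 and 3 below. The only ones of the 7 without overlap of the groups in CPM were TSC22D3 at 0.43 (edgeR adjusted p = 0.0583) and ERRFI1 at -0.27 (edgeR adjusted p = 0.0719). They lay in opposite directions, and 23.9% of all tested genes did not overlap in either direction.

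ANGPTL4 (ENSG00000167772, chromosome 19, 8363289 to 8374373, plus strand), a secreted inhibitor of lipoprotein lipase that hypoxia and fatty acids induce, had 24, 22 and 13 counts in control and 8, 6 and 14 counts in PDZK1 libraries. In CPM these were 0.743, 0.712 and 0.471 against 0.250, 0.183 and 0.441. The lowest control and the highest PDZK1 library came close without overlapping. ANGPTL4 had a log2 fold change of -1.14 ± 0.448 (SE, 95% interval -2.14 to -0.13, unadjusted p = 0.0302, edgeR adjusted p = 0.222), and ranged from -1.56 to -0.89 when a library was left out. It had at least 10 counts in 3 control but 1 PDZK1 library, so it entered the test through the group in which it was higher.

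ANGPTL2, an inflammatory member of the family, was the only 1 of the 6 other angiopoietin-like genes that could be tested, with 46.2 ± 11.6 CPM in control and 37.8 ± 1.83 CPM in PDZK1 libraries (log2 fold change -0.29, edgeR adjusted p = 0.481). Control replicate 3 stood apart at 59.6 CPM, and without it the log2 fold change of ANGPTL2 was -0.067. Of 9 lipases and processing partners of ANGPTL4, 6 could be tested and 0 passed the threshold (median log2 fold change -0.029), and LPL, its best known target, was at 0 counts in all libraries.

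ANGPT1 (ENSG00000154188, chromosome 8, 107249482 to 107498055, minus strand), the activating ligand of TEK, had 48, 20 and 41 counts in control and 35, 83 and 45 counts in PDZK1 libraries. In CPM these were 1.49, 0.647 and 1.49 against 1.09, 2.53 and 1.42, with PDZK1 replicate 2 the highest and the others overlapping. The log2 fold change was 0.48 (95% interval -0.44 to 1.40, edgeR adjusted p = 0.610), and 0.061 without PDZK1 replicate 2. ANGPT2 (ENSG00000091879, chromosome 8, 6499651 to 6563409, minus strand), the context-dependent antagonist, had 10, 10 and 7 counts in control and 8, 9 and 13 counts in PDZK1 libraries. These overlapped and were too few to test under the filter, and in a fit of all genes with at least 1 count the log2 fold change was 0.073 (95% interval -1.27 to 1.41, edgeR adjusted p = 0.978). ANGPT2 lies whole within MCPH1 on the opposite strand and shares 78 exonic bases with it. PTPRB, a phosphatase that restrains TEK, was well expressed at 162 ± 18.8 CPM in control and 154 ± 32.8 CPM in PDZK1 libraries (log2 fold change -0.075, edgeR adjusted p = 0.895).

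VEGFA and ANGPTL4 are targets of the hypoxia-inducible factors (HIF), and 31 of 32 other genes of oxygen sensing or HIF targets could be tested. Of these, 6 passed the threshold, all lower in the PDZK1 group, beside 2.41% of all tested genes called lower. EPAS1, the alpha subunit of HIF-2, fell from 265 ± 4.98 to 211 ± 4.62 CPM (log2 fold change -0.33, edgeR adjusted p = 0.000895) and passed in every alternative fit. PDK1, which restrains pyruvate entry into mitochondria, fell by 0.55 on the log2 scale (adjusted p = 0.0195). The glycolytic enzyme ENO1 fell by 0.32 (adjusted p = 0.0108) and the collagen prolyl hydroxylase P4HA1 fell by 0.30 (adjusted p = 0.0322). EGLN1 and LOX, the other genes called, both lost the call with library totals only (adjusted p = 0.0509 and 0.0583). The median log2 fold change of the 31 was -0.13, with 24 below 0 and 7 above. With each library left out in turn, PDK1 and ENO1 passed in 3 of 6 fits each (highest adjusted p = 0.109 and 0.0792), P4HA1 and EGLN1 in 1 each (highest adjusted p = 0.133 and 0.175) and LOX in 2 (highest adjusted p = 0.196).

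Of 20 PPAR regulators and targets, 17 could be tested and 1 passed the threshold, beside 3.83% of all tested genes. PPARG, a nuclear receptor that binds fatty acids, fell from 15.2 ± 0.607 to 11.0 ± 0.818 CPM (log2 fold change -0.46, edgeR adjusted p = 0.0236), and the median of the 17 was 0.041. With each library left out in turn, PPARG passed in 1 of 6 fits (highest adjusted p = 0.0973). Of 11 regulators of VEGFA transcription or mRNA, 11 could be tested and 0 passed the threshold (median log2 fold change -0.018).

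Among 24 other pro-angiogenic factors, 23 could be tested and 2 passed the threshold, both lower. FGF2, a heparin-binding growth factor abundant in these cells, fell from 1212 ± 119 to 930 ± 21.8 CPM (log2 fold change -0.38, edgeR adjusted p = 0.0168). HBEGF, a ligand of the EGF receptor, fell by 0.33 on the log2 scale (adjusted p = 0.0184). Both passed in 1 of 6 fits with a library left out (highest adjusted p = 0.0894 for FGF2 and 0.0975 for HBEGF). The median of the 23 was -0.012. Among 24 other anti-angiogenic factors, 17 could be tested, 1 passed higher and 2 passed lower. THBS1, thrombospondin, rose from 289 ± 16.0 to 391 ± 17.1 CPM (log2 fold change 0.44, edgeR adjusted p = 0.00138), and the protease inhibitor TIMP2 and the matrix protein SPARC fell by 0.26 and 0.23 (adjusted p = 0.00534 and 0.0292). With each library left out in turn, THBS1 passed in 6 of 6 fits, TIMP2 in 5 (highest adjusted p = 0.0509) and SPARC in 1 (highest adjusted p = 0.138). The median of the 17 was 0.074. Over all lists outside the 10 genes, 15 of 149 tested genes passed the threshold, or 10.1%, with 13 lower and 2 higher. Of all tested genes, 3.83% passed, 2.41% lower and 1.41% higher. The lists were chosen with earlier results of these data known, and their count ran from 3 to 27 over the alternatives. It is a description and no test of the lists.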

How the data were processed

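RNA sequencing of ARPE-19 cells gave 6 libraries in 2 groups of 3, grouped by the submitters' labels. The authors deposited read counts per gene, whole numbers treated here as estimated counts without scaling, and FPKM, scaled by transcript length and depth. The submitters' processing notes name fastp 0.20.1, HISAT2 2.2.1 and GRCh38. The counting program and strandedness are not given in the sources used here. Each table lists 21314 entries. The 853 assembled loci among them (0.519% to 0.536% of a library's counts) were left out of the test. Both tables also hold 3 columns of per-sample values each that match no sample used here and were not used. Gene positions are those of GENCODE release 29, and promoters those of RefSeq, whose table held 6 of the 10 genes. 

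Counts were tested with edgeR 4.0.16 in R 4.3.3 (filterByExpr with 10 counts, TMM, robust quasi-likelihood test, no covariates, Benjamini-Hochberg over 13645 genes, threshold 0.05). CPM used TMM-scaled library sizes, and per-library log2 CPM a prior count of 2 where patterns were compared. Errors are SD over 3 libraries unless named SE. The test was tested on simulated data with known changes and the same spread for all genes. These changes were set only in genes with higher mean counts than SERPINF1, ANGPT1 and ANGPTL4, so genes that low were not covered. Alternatives were DESeq2 1.42.0, limma 3.58.1 (voom, or log2 FPKM with pseudocounts of 1 or 0.1 and a mean of at least 0.5 FPKM, or no filter), other scalings and filters, a 1.5-fold threshold, the replicate number as a block, and each library left out. On the log2(FPKM + pseudocount) scale the changes of low genes are understated. 

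Named were the 10 genes, PDZK1, the genes annotated as overlapping one of them, all testable genes of the other VEGF and TIE pathway and angiopoietin-like lists, and at most 4 called genes of each other list by size of change. Overlapping genes not named above are the antisense genes AC093801.1 at VEGFC (0 shared exonic bases) and RAB11B-AS1 at ANGPTL4 (1 shared exonic base). For a gene past the threshold, the called genes within 1 Mb and the 3 nearest in pattern (Euclidean distance of centred log2 CPM) were named as well, except for an item that is not reported here. EGLN1, LOX, TSC22D3, ERRFI1, the marker genes, LPL and the untested pathway genes were added for completeness. The genes and lists were chosen with earlier results of these data known.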

Additional observations from a re-analysis of the deposited data

How the results depend on the processing

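Over 16 alternatives, 1 of the 10 genes (ANGPTL7) passed the threshold in each, with log2 fold changes from -1.49 to -0.93 and adjusted p from 3.36e-08 to 0.0434. ANGPTL4 and ANGPT1 were under the FPKM filter and gave no value in the filtered FPKM fits, and ANGPTL4 gave none at 10 counts in every library. Directions that turned were VEGFB (-0.096 to 0.0078 with a library left out, the latter without control replicate 3), VEGFC (-0.015 without PDZK1 replicate 3 to 0.079), PLXND1 (-0.026 without control replicate 3 to 0.16) and PTPRB (-0.17 to 0.095, the latter without PDZK1 replicate 2, 0.022 and 0.021 in log2 FPKM with pseudocounts of 0.1 and 1, and 0.021 with no filter), none of them called. The 522 called genes became 793 with DESeq2, 187 and 191 in log2 FPKM with pseudocounts of 0.1 and 1, 184 with no filter, 171 over a 1.5-fold change, 163 with the replicate block, and 181 (without PDZK1 replicate 1) to 875 (without control replicate 3) with a library left out. The other fits that left out a library gave 186 to 293. The counts with library totals only were 241 higher and 276 lower, against 193 and 329. The 15 called genes of the other lists became 27 with DESeq2, 6 and 6 in log2 FPKM with pseudocounts of 0.1 and 1, 5 with no filter, 3 with the replicate block, and 3 (without PDZK1 replicate 3) to 26 (without control replicate 3) with a library left out. The 9 called neighbours of ANGPTL7 became 2, 2 and 1 in the same FPKM fits, 1 with the replicate block and 2 to 13 (13 without control replicate 3) with a library left out. The difference in log2 ratio of VEGFA to SERPINF1, 0.80, ran from 0.36 (without PDZK1 replicate 2) to 1.14 (without PDZK1 replicate 1). The causes were not tested. Libraries with the same number had residual correlations of -0.046, -0.056 and -0.143, so the numbers were not taken to pair them. Depth limits what can be said of FLT1, PGF and ANGPT2, and leaves SERPINF1, ANGPT1 and ANGPTL4 with wide intervals.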
